A study of Mus musculus with 4 samples.

Results

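The genes described here are 10 genes of transferrin and iron handling, Trf, Tfrc, Tfr2, Steap3, Slc11a2, Fth1, Ftl1, Slc40a1, Cp and Hmox1. The rule takes them by gene name and uses no threshold on their values, although the list was drawn up with earlier results of these data known. All 10 are listed among the 55397 genes of the table of normalized counts. Mouse embryonic fibroblasts (MEFs) were prepared at embryonic day 13.5 from pooled limbs of several C57BL/6J embryos with Prox1 fl/fl alleles. All cells carried the lentiviral 4in1 construct, which encodes liver transcription factors under doxycycline control and turns fibroblasts towards hepatocyte-like cells. The 2 libraries labelled Prox1 KO (creGFP) also received active Cre recombinase with GFP, and the 2 control libraries (dcreGFP) received a Cre without recombinase activity. Bulk RNA was taken on day 14, and the comparison addresses whether endogenous Prox1 is needed for this reprogramming.

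Transferrin is the iron carrier of blood plasma and is made mainly by hepatocytes. Cells take up iron-loaded transferrin through the transferrin receptor, reduce the iron in the endosome, move it to the cytosol, store it in ferritin and release it through ferroportin. In many cells the iron regulatory proteins adjust this balance after transcription by binding iron-responsive elements, short hairpins in the untranslated regions of the mRNAs, so that mRNA levels alone do not give the protein levels.

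Matches to a strict pattern of the iron-responsive element are shown, a sequence feature that Fth1, Ftl1, Slc40a1 and Tfrc share. The search looked for a C bulge, a stem of 5 pairs closed by the loop CAGTGN (the last base not G), and at least 4 of 5 pairs in the lower stem, on the sense strand of the untranslated regions in GENCODE vM21 (GRCm38, the assembly also called mm10). Capitals mark the bulged C and the loop, and each sequence is written 5′ to 3′ with T.
Fth1, 5′ UTR, chr19:9982733-9982759 (+): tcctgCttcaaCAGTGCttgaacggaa
Ftl1, 5′ UTR, chr7:45459780-45459806 (-): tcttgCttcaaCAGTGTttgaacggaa
Slc40a1, 5′ UTR, chr1:45925466-45925492 (-): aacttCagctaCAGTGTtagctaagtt
Tfrc, 3′ UTR, chr16:32631220-32631246 (+): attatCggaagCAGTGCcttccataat
Tfrc, 3′ UTR, chr16:32631599-32631625 (+): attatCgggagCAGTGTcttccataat
Tfrc, 3′ UTR, chr16:32631664-32631690 (+): tatatCggagaCAGTGAtctccatatg
Tfrc, 3′ UTR, chr16:32631711-32631737 (+): attatCgggaaCAGTGTttcccataat

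The pattern was found in 14 of 21866 coding genes (0.064%), and 4 of these are members. The elements of the ferritin genes Fth1 and Ftl1 were identical at 25 of 27 positions, whereas the Slc40a1 element matched each of them at 13 of 27. The 4 Tfrc elements found matched one another at 17 to 25 of 27 positions. Elements that depart from the pattern were not sought, so the list may be incomplete and a member without a match may still carry an element. A match of letters is a description and does not show that an element was in use in these cells.

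The libraries held between 42469031 and 48524008 reads on genes. Values below are normalized counts, which are reads divided by the library's size factor. The targeted gene was not lower by its whole-gene value: Prox1 had 72.7 and 61.6 normalized counts in those labelled Prox1 KO and 60.6 and 25.5 in the controls (log2 fold change 0.75, SE 0.27, limma adjusted p = 0.0936). A whole-gene value also counts reads outside the deleted part, so it does not check the labels. Of 8 hepatocyte markers, 7 were high enough to test and Tat had 0 to 2 normalized counts. All 7 had a negative log2 fold change (median -0.77) and 6 were called lower, beside 6.29% of all tested genes called lower. Of 8 fibroblast markers 4 were called lower, and of 6 proliferation markers 5 were called lower and Rrm2 higher. Of 3 tested endothelial markers Kdr was called higher, while Tek and Emcn did not pass. Pecam1 and Cdh5 were too low to test. Of the macrophage markers, Adgre1, Tyrobp and Fcgr1 were at 0 in every library and 0 of 4 tested passed the threshold, and the erythroid markers summed to 6.24 to 35.1 normalized counts per library with none tested.

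Of the 9 members tested, Trf, Slc40a1, Cp and Steap3 were lower in the libraries labelled Prox1 KO, none was higher, and Tfrc, Slc11a2, Fth1, Ftl1 and Hmox1 did not pass the threshold. Trf had the largest difference, to 0.405 of the control level. The test was limma on log2(normalized counts + 1) with the replicate number as a block, at an adjusted p of 0.05 over all genes that averaged 10 or more normalized counts. The 4 lower members are 44.4% of those tested, beside 6.29% of all 15809 tested genes called lower, 5.09% called higher and 11.4% called in either direction. The median log2 fold change was -0.14 over the tested members and -0.0022 over all tested genes. Without the replicate block 0 of 15809 genes (0%) passed the threshold, so each of the 4 calls rests on pairing the libraries by number. Without that block, 1783 genes and 2 members had an unadjusted limma p under 0.05.

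**Figure D1:**
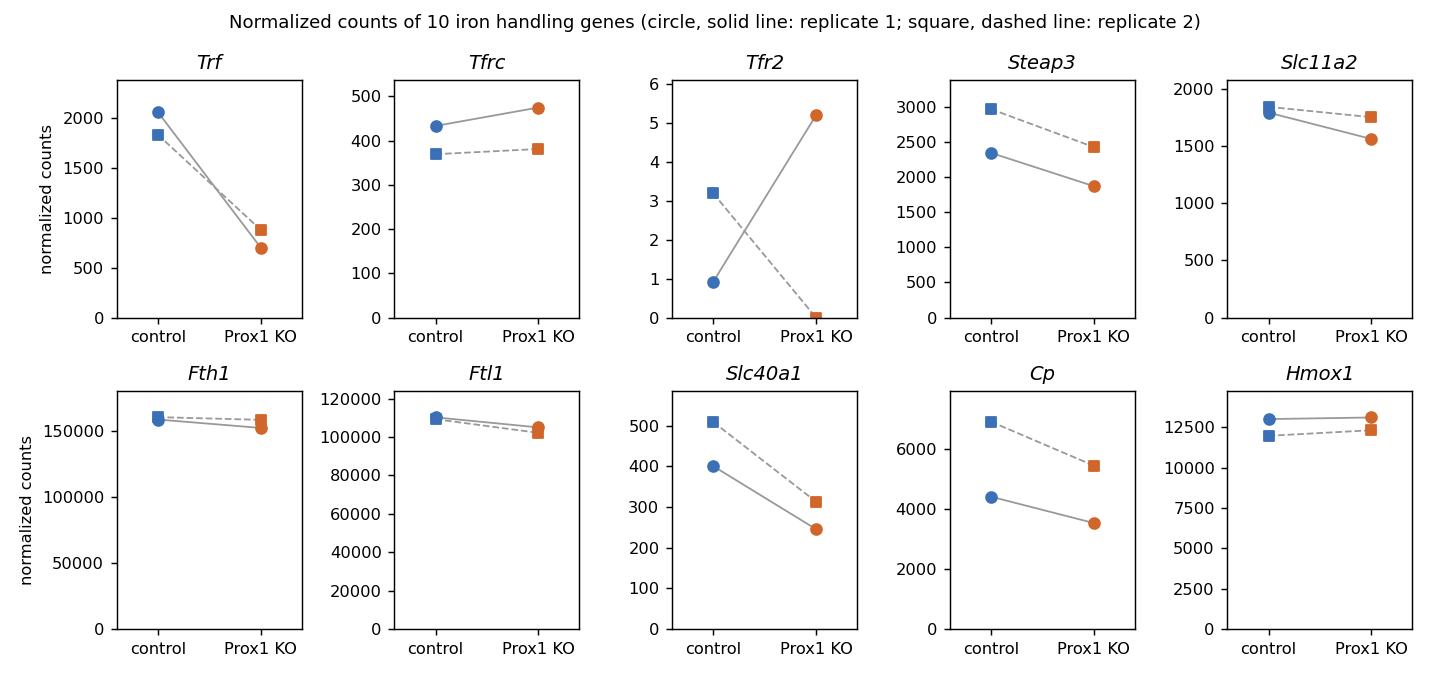
Normalized counts of the 10 genes in each library, with a linear axis from 0 for each gene and a line joining the libraries that share a replicate number. Trf and Slc40a1 lie lower in both libraries labelled Prox1 KO than in both controls, while Cp and Steap3 are lower within each pair but overlap between the groups.

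Trf encodes transferrin itself (ENSMUSG00000032554, chr9:103204001-103230444, minus strand). It had 700.4 and 877.8 normalized counts in those labelled Prox1 KO and 2055 and 1829 in the controls. The groups did not overlap, and the higher Prox1 KO library was still well under the lower control. The means were 789 ± 125 and 1942 ± 160 (SD, n = 2 each), and the log2 fold change was -1.30 (SE 0.09, 95% interval -1.49 to -1.12, limma adjusted p = 2.86e-07). The difference was -1.55 in pair 1 and -1.06 in pair 2 on the log2 scale. Both pair values lie outside the 95% interval, because limma moderates the variance of a gene with that of other genes. The SE and interval are therefore narrower than the spread of the Trf pairs. In bulk RNA, fewer transferrin-producing cells and less Trf RNA per cell cannot be told apart. Only 77 of the 15809 tested genes (0.487%) had a lower log2 fold change.

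Other hepatocyte genes differed in the same direction as Trf. The summed hepatocyte markers were 18862 and 20645 normalized counts in those labelled Prox1 KO and 24905 and 27750 in the controls. Afp was the largest single part of each sum (9555 and 9157 against 12115 and 9839), with a log2 fold change of -0.22. Albumin, the most abundant of the plasma proteins, had a log2 fold change of -0.10 that did not pass the threshold (limma adjusted p = 0.158). The ratio of Trf to Alb was therefore lower in the libraries labelled Prox1 KO, at 0.183 and 0.184, than in the controls, at 0.490 and 0.364. The part of hepatocyte content in the Trf result was not tested. The transcript Gm20425 runs over Trf on the same strand, and 77.3% of the 100-base windows of the longest Trf transcript also occur in it. Gm20425 was not analysed here, so whether reads in the shared windows were dropped or counted for Trf is not known.

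The genes with a pattern over the 4 libraries most like that of Trf, by Euclidean distance between centred log2 values among tested protein-coding genes, were Sigirr (0.153), Troap (0.163), Exph5 (0.166), Tmem130 (0.214) and Bex1 (0.216). Of these, Bex1 had 140.3 and 174.0 normalized counts in those labelled Prox1 KO and 445.2 and 438.6 in the controls. The nearer genes were all less abundant, from 12.5 normalized counts for Troap to 105.6 for Tmem130 in single libraries. This likeness was measured over 4 libraries and is a description.

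Neither receptor of transferrin passed the threshold or could be shown to differ. Tfrc, the transferrin receptor of most cells (chr16:32608920-32632794), had 474.9 and 381.2 normalized counts in those labelled Prox1 KO and 433.3 and 369.4 in the controls. The groups overlapped. The log2 fold change was 0.09 (SE 0.09, limma adjusted p = 0.630), and its 95% interval of -0.11 to 0.29 does not reach the Trf value. Tfr2, a second receptor known from hepatocytes and erythroid precursors (chr5:137569840-137587481), had 5 and 0 reads in those labelled Prox1 KO and 1 and 3 in the controls. It was too low to test, and no difference was detectable at this depth.

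The ratio of ligand to receptor RNA can be compared between libraries. Trf over Tfrc was 1.48 and 2.30 in those labelled Prox1 KO and 4.74 and 4.95 in the controls. The groups did not overlap in this ratio.

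Steap3, the endosomal reductase that prepares iron for export from the endosome (chr1:120190757-120272705), had 1874 and 2431 normalized counts in those labelled Prox1 KO and 2348 and 2972 in the controls. Its groups overlapped, because the number 2 libraries were higher than the number 1 libraries in both groups. Within pairs it was lower by similar amounts, -0.33 and -0.29, and the log2 fold change was -0.31 (SE 0.05, limma adjusted p = 0.000702). Slc11a2, the divalent metal transporter DMT1 that passes iron to the cytosol (chr15:100387898-100425072), had 1560 and 1750 normalized counts in those labelled Prox1 KO and 1790 and 1841 in the controls. The groups did not overlap, but the log2 fold change of -0.14 (SE 0.06) did not pass the threshold (limma adjusted p = 0.143).

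The ferritin subunits had the highest levels per kb of transcript among the members. Fth1, the heavy chain that oxidizes iron for storage (chr19:9980598-9985098), had 152493 and 158615 normalized counts in those labelled Prox1 KO and 158868 and 160702 in the controls. The groups lay narrowly apart, without overlap. The log2 fold change was -0.04 (SE 0.05, limma adjusted p = 0.685), and its sign turned under quantile normalization. Ftl1, the light chain that aids iron core formation (chr7:45457944-45459884), had 105062 and 102223 normalized counts in those labelled Prox1 KO and 110309 and 109344 in the controls. Its groups did not overlap, and the log2 fold change of -0.08 (SE 0.05, 95% interval -0.18 to 0.01) did not pass the threshold (limma adjusted p = 0.283). Both intervals exclude a change as large as that of Trf or Slc40a1.

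Together the 2 ferritin genes took 0.577% and 0.580% of reads on genes in those labelled Prox1 KO and 0.604% and 0.597% in the controls. The ratio of Fth1 to Ftl1 was 1.45 and 1.55 against 1.44 and 1.47. Ferritin pseudogenes share sequence with these genes: 78.6% of the 100-base windows of the longest Ftl1 transcript also occur elsewhere. The rows of Fth-ps2 and Fth-ps3 together held at most 0.0106% of the Fth1 value, and those of Ftl1-ps1, Ftl1-ps2 and Ftl2-ps at most 0.138% of the Ftl1 value. At these shares adding them could hardly move either gene, and both stayed uncalled. The sum does not show how reads from shared windows were assigned. The other genes that share Ftl1 windows, such as Gm10252, were not added.

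Slc40a1 encodes ferroportin, the exporter of iron from cells (chr1:45908068-45926523). It had 245.2 and 312.8 normalized counts in those labelled Prox1 KO and 400.3 and 508.8 in the controls. The groups did not overlap. The log2 fold change was -0.70 (SE 0.10, 95% interval -0.92 to -0.49, limma adjusted p = 0.000322), with -0.70 in each pair. Macrophages are a known source of ferroportin. The summed macrophage markers were 328 and 369 normalized counts in those labelled Prox1 KO and 320 and 298 in the controls, but most of this sum was Cd68 (206 and 232 against 171 and 159), while Csf1r had 71.7 and 89.0 against 104 and 92.6. The part of macrophage or hepatocyte content in the Slc40a1 result was not tested.

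Cp encodes ceruloplasmin, the copper ferroxidase of plasma that oxidizes exported iron for loading onto transferrin (chr3:19957054-20009145). It had 3534 and 5450 normalized counts in those labelled Prox1 KO and 4415 and 6917 in the controls. The groups overlapped, and the number 2 libraries were higher in each. Within pairs the difference was -0.32 and -0.34, and the log2 fold change was -0.33 (SE 0.04, limma adjusted p = 0.000102). Hps3 lies antisense to Cp, and Gm5475 to Slc11a2. The libraries were stranded, but the counting setting is not given in the sources used here.

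Hmox1, the inducible haem oxygenase that frees iron from haem (chr8:75093621-75100589), had 13103 and 12313 normalized counts in those labelled Prox1 KO and 13004 and 11966 in the controls. The groups overlapped, and the log2 fold change was 0.03 (SE 0.04, 95% interval -0.06 to 0.11, limma adjusted p = 0.745).

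**Figure D2:**
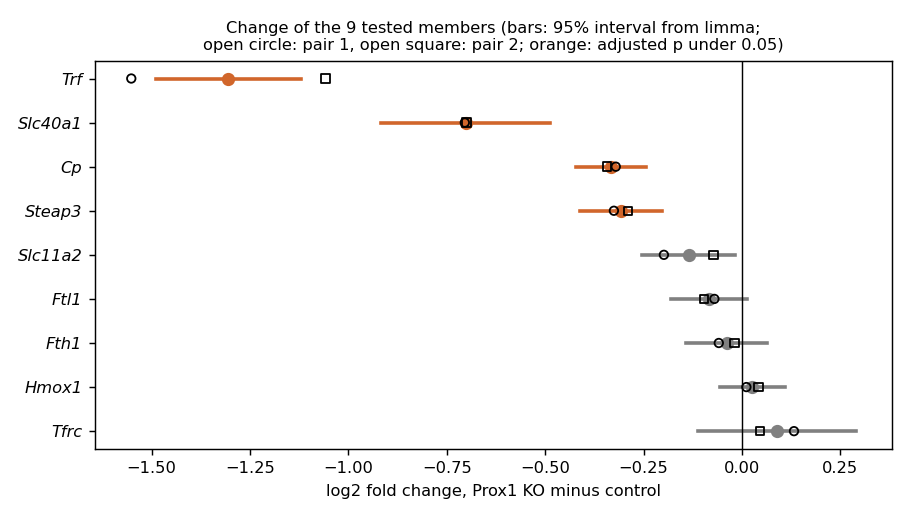
Log2 fold change of the 9 tested genes, libraries labelled Prox1 KO minus control, with 95% limma intervals as bars and the value of each pair as open symbols. Orange marks the 4 genes with an adjusted p under 0.05, and the intervals of Trf and Slc40a1 lie apart from those of Tfrc and the ferritins.

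Of the 9 tested members, 7 were lower in both pairs and 2, Tfrc and Hmox1, were higher in both. Slc11a2, Fth1 and Ftl1 are among those 7 and did not pass the threshold. The share of all tested genes lower in both pairs was not computed, so the 7 are a count only. In 5 of the 9 the libraries labelled Prox1 KO lay below the controls without overlap, beside 22.6% of all tested genes. The 4 called members were also called with edgeR (11.4% of all genes called) and with DESeq2 (3.35%), each with the block. With 2 libraries against 2, an exact permutation test of a single gene cannot give a two-sided p below 0.333. The labels number the libraries of a group but do not say which culture or MEF line each came from. The spread between these libraries may therefore be technical. In limma the spread of each gene was also moderated towards that of genes of like level. Its SEs, intervals and p-values thus do not measure the spread of that gene's own libraries alone.

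Levels were compared between members per kilobase of the longest coding transcript. The mean level over the 4 libraries was 110300 normalized counts per kb for Ftl1 and 105500 for Fth1, whose ranges overlapped, and then 8028 for Hmox1. Cp followed at 1113, Trf at 531, Steap3 at 467 and Slc11a2 at 393, and within these 4 each range overlapped that of the next gene. The place of Trf differed between the groups. In the controls it had 800 and 711 normalized counts per kb, above Steap3 at 455 and 576. In those labelled Prox1 KO it had 272 and 341, below Steap3 at 363 and 471 and Slc11a2 at 353 and 396 in the same libraries. Slc40a1 at 109 and Tfrc at 84.8 also overlapped, and Tfr2 was lowest at 0.757. With the summed exon length of each gene in place of the longest transcript, Trf and Steap3 changed places, as did Slc40a1 and Tfrc.

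**Figure D3:**
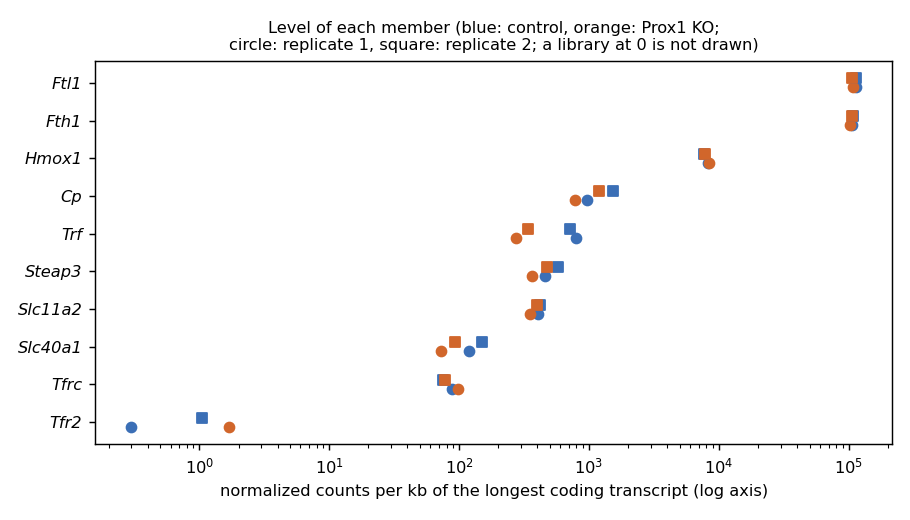
Normalized counts per kb of the longest coding transcript in each library, on a log axis, for the 10 genes in order of mean level. The ferritins stand highest, at 110300 for Ftl1 and 105500 for Fth1 on average, and both Trf values of the libraries labelled Prox1 KO lie below both Trf control values.

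The wider pathway was described with 5 lists holding 80 genes, of which 70 were tested. Of these, 8 were higher, 2 were lower and 60 did not pass the threshold, so 14.3% were called beside 11.4% of all genes, and the median log2 fold change was 0.0036. The split between higher and lower depended on the test: edgeR called 6 higher and 2 lower, and DESeq2 3 higher and 2 lower.

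Both lower pathway genes are metalloreductases of the uptake and transport list, in which 2 of 17 tested genes were lower and 2 higher. Steap4 had 515 and 1364 normalized counts in those labelled Prox1 KO and 1075 and 2158 in the controls, with a log2 fold change of -0.86 (limma adjusted p = 4.98e-06). The groups overlapped, and the number 2 libraries were again higher in each. Cybrd1, the reductase DCYTB, had 672 and 1039 against 1205 and 1322 normalized counts, without overlap, and a log2 fold change of -0.59 (limma adjusted p = 0.000483). The other STEAP genes of the list did not pass, with log2 fold changes of -0.15 for Steap1 (limma adjusted p = 0.288) and 0.10 for Steap2 (limma adjusted p = 0.141).

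Heph encodes hephaestin, a membrane ferroxidase related to ceruloplasmin, and was higher by 0.31 on the log2 scale (limma adjusted p = 0.0395) while Cp was lower. The Heph groups overlapped, at 646 and 443 normalized counts in those labelled Prox1 KO and 559 and 333 in the controls. The ratio of Cp to Heph was 5.47 in the Prox1 KO library and 7.90 in the control of pair 1, and 12.3 and 20.8 in pair 2. Slc22a17, a lipocalin receptor, was higher by 0.26 (limma adjusted p = 0.0260), without overlap.

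Of 12 tested regulators, Atoh8 (0.36, limma adjusted p = 0.000905) and Smad7 (0.28, limma adjusted p = 0.0233) were higher, with overlapping groups for each. That is 16.7% of the list, beside 5.09% of all tested genes called higher. Both belong to the BMP pathway that controls hepcidin, but other genes of that pathway did not pass. These include Id1 (0.12, limma adjusted p = 0.168), Smad6 (0.20, limma adjusted p = 0.156), Bmp6 (-0.14, limma adjusted p = 0.570) and Bmp2 (0.05, limma adjusted p = 0.865). The hepcidin genes Hamp and Hamp2, with Hjv, were at 0 in every library, where 3 reads correspond to 2.75 to 3.19 normalized counts. The RNAs of the iron regulatory proteins did not pass, with log2 fold changes of -0.09 for Aco1 (limma adjusted p = 0.252) and 0.02 for Ireb2 (limma adjusted p = 0.862).

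Among 18 tested genes of haem metabolism only Cpox, a late enzyme of haem synthesis, passed (0.36, limma adjusted p = 0.000476), without overlap. None of 14 tested genes of iron-sulphur cluster assembly passed. The NRF2 and BACH1 list holds these factors, the NRF2 inhibitor Keap1 and target genes, and 3 of its 9 genes were higher, beside 5.09% of all tested genes: Nqo1 (0.34, limma adjusted p = 0.00159), Gclc (0.34, limma adjusted p = 3.86e-05) and Txnrd1 (0.13, limma adjusted p = 0.0473). The groups overlapped for Nqo1 but not for Gclc or Txnrd1. Hmox1, a known target of the same factors, was not among the called genes.

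**Figure D4:**
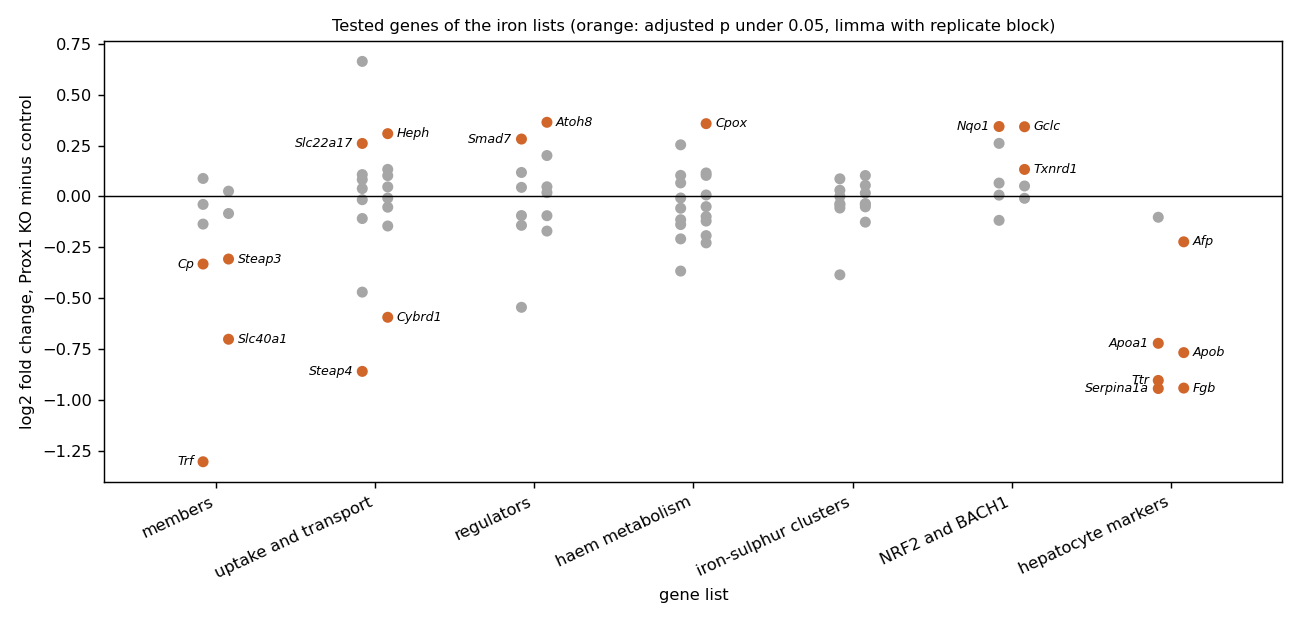
Log2 fold change of each tested gene of the 10 members, the 5 pathway lists and the hepatocyte markers, with orange for an adjusted p under 0.05. Called members and called hepatocyte markers lie below 0, while 8 of the 10 called pathway genes lie above it.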

How the data were processed

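Bulk RNA-seq libraries (dUTP protocol, paired-end) were mapped by the authors to mm10 with STAR; the counting tool and annotation are not given in the sources used here. The authors deposited normalized counts, a signal per gene equal to reads divided by the DESeq2 size factor. In each library 100% of positive values were whole multiples of 1 read (tolerance 0.01), so reads were recovered. A deposited table of the authors' comparison (means, log2 fold changes, p-values) was not used.

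Groups and replicate numbers came from the labels. Genes averaging 10 or more normalized counts entered limma 3.58.1 (R 4.3.3) as log2(normalized counts + 1), with an intensity trend and Benjamini-Hochberg adjustment. Variances were moderated across genes. The pseudocount understates changes of low genes. The replicate number was a block because the authors' model had the MEF line as a covariate; that numbers stand for lines is not stated. Deviations of same-numbered libraries from their group means correlated across genes (r = 0.402). Libraries of one group differed beyond sampling noise in 34.3% and 35.4% of genes, so none was a duplicate.

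Alternatives were no block, pseudocounts 0.1 and 10, no filter, a mean of at least 100, quantile normalization, edgeR 4.0.16 and DESeq2 1.42.0 on the recovered reads, leaving out each replicate, and adding pseudogene rows. Tests were checked on simulated data. Members and lists were chosen with earlier results of these data known. Named were all members, list genes that passed, Prox1 and the 5 genes nearest to Trf; genes given without passing were added after their values were seen. All 10 members matched GENCODE vM21 by identifier. Counting error does not cover amplification, since no molecular identifiers were used.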

Additional observations from a re-analysis of the deposited data

How the results depend on the processing

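Without the replicate block, 0 genes passed the threshold, with 0 members and 0 pathway genes. Each replicate number occurs once in each group, so leaving out the block cannot change a log2 fold change, only its test. The unchanged values are thus no support, at -1.305 for Trf (limma adjusted p = 0.118), -0.7023 for Slc40a1 (limma adjusted p = 0.329), -0.3323 for Cp (limma adjusted p = 0.666) and -0.3077 for Steap3 (limma adjusted p = 0.510). These calls therefore depend on the pairing, which rests on 2 pairs. DESeq2 with the block called 467 genes (211 higher, 256 lower), all among the 1798 of limma, and 5 pathway genes (3 higher, 2 lower). Its row set was varied after seeing the data: with rows at 0 in every library kept it called 471 genes, 5 pathway genes and the same 4 members. The cause of the lower count was not tested. Quantile normalization, which moved the median of all genes by 0.023, reversed Fth1 to 0.0781 (limma adjusted p = 0.440).

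Of 83 alternative values of the 9 tested members from fits with a test, 78 kept direction and call, 4 lost the call and 1 reversed. In the limma fits without the block or with another filter, the log2 fold changes equal those of the main fit by construction. Only the call could change there, and the pseudogene rows were too small to move Fth1 or Ftl1 much. The 4 called members passed in 10 of 11 fits, with adjusted p from 1.94e-86 to 0.118 for Trf, 4.73e-10 to 0.329 for Slc40a1, 1.93e-10 to 0.666 for Cp and 1.01e-06 to 0.510 for Steap3. The lowest value for Trf came from the fit of all genes above 0 in at least 1 library. The log2 fold change there was -1.305, as in the main fit. The lower value thus comes from the moderated variance and the set of genes tested, and adds no evidence on Trf. Leaving out a replicate leaves 1 pair and no test, and all 18 such values kept their sign; the range was -1.55 to -1.06 for Trf. The planned sum of Trf and Gm20425 was not run; Gm20425 was not analysed here.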
